A study of Homo sapiens with 18 samples.

Results

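The MYC, MAX and MXD network is a set of transcription factors with a basic helix-loop-helix leucine zipper domain, and 10 of its genes, MYC, MYCN, MYCL, MAX, MXI1, MXD1, MXD3, MXD4, MNT and MLX, were followed by their symbols in a table of 58870 genes. All 10 symbols were found, and 8 of the 10 had enough counts to be tested among 15787 genes. The cells were NCI-H295R, an established adrenocortical carcinoma line that makes steroid hormones. RNA was sequenced after 48 h in 6 groups of 3 biological replicates: STA9090+PIK75, STA9090+BGT226, PIK75 alone, BGT226 alone, STA9090 alone, and untreated cells. STA9090 inhibits the chaperone HSP90, PIK75 inhibits the p110-alpha subunit of PI3K, and BGT226 inhibits PI3K and mTOR. The stated dose was 20 nM. How much of either agent a combination held, and whether untreated cells got a vehicle, is not given in the sources used here. All groups are 1 cell line, so the replicates show the spread between cultures of that line.

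MYC proteins bind DNA as a pair with MAX and raise transcription of genes for growth, metabolism and the cell cycle. MXD1, MXI1, MXD3, MXD4 and MNT compete for MAX, bind the same E-box letters CACGTG, and repress through SIN3 and histone deacetylases. MLX is a second partner of MXD1, MXD4 and MNT and also of MondoA, which answers to glucose by raising TXNIP and ARRDC4. The MYC mRNA and protein are both short-lived, and the protein is marked for decay through GSK3, which PI3K signalling restrains, so that mRNA is only one layer of the control of MYC. Protein was not measured in these libraries.

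Library totals ran from 10.2 to 21.1 M counts, and levels are given as counts per 1 M (CPM) after TMM scaling, with factors from 0.903 to 1.13. Adrenocortical markers were present: 12 of 13 were tested, and their summed level was 1044 to 1088 CPM in STA9090+PIK75 cells, 2464 to 2674 CPM in STA9090+BGT226 cells, 1359 to 1545 CPM in PIK75 cells, 2094 to 2206 CPM in BGT226 cells, 2124 to 2723 CPM in STA9090 cells and 2184 to 2610 CPM in untreated cells. Markers of other cell types were low. The 7 fibroblast markers summed to 0.804 to 1.26 CPM in STA9090+PIK75 cells and to 4.88 to 11.5 CPM elsewhere, the 5 endothelial markers to at most 0.315 CPM, and the 6 leukocyte markers to 1.02 to 2.64 CPM. In STA9090+PIK75 cells all 12 tested adrenocortical markers fell against untreated cells at an adjusted p under 0.05 (edgeR), beside 20.1% of all tested genes. In PIK75 cells 10 of these 12 fell and none rose at that threshold, beside 10.2% of all tested genes lower. In both groups with BGT226 the sum of these markers hides opposite changes of single markers against untreated cells. In BGT226 cells CYP17A1 had a log2 fold change of -1.34 (adjusted p = 7.01e-10) and CYP21A2 0.476 (adjusted p = 0.00481), both by edgeR. In STA9090+BGT226 cells CYP17A1 had -0.82 (adjusted p = 1.65e-07) and HSD3B2 1.065 (adjusted p = 6.28e-08), both by edgeR. The part of changed adrenocortical markers in the results for any treatment was not tested. Fewer cells of a type and less RNA per cell cannot be told apart in bulk RNA. On the third principal component of log2 CPM, STA9090 replicate 1 stood apart at 30.1 from replicates 2 and 3 of its group, which had 12.0 and 9.16, and PIK75 replicate 3 stood at -35.4, against -22.5 for both other PIK75 libraries.

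**Figure D1:**
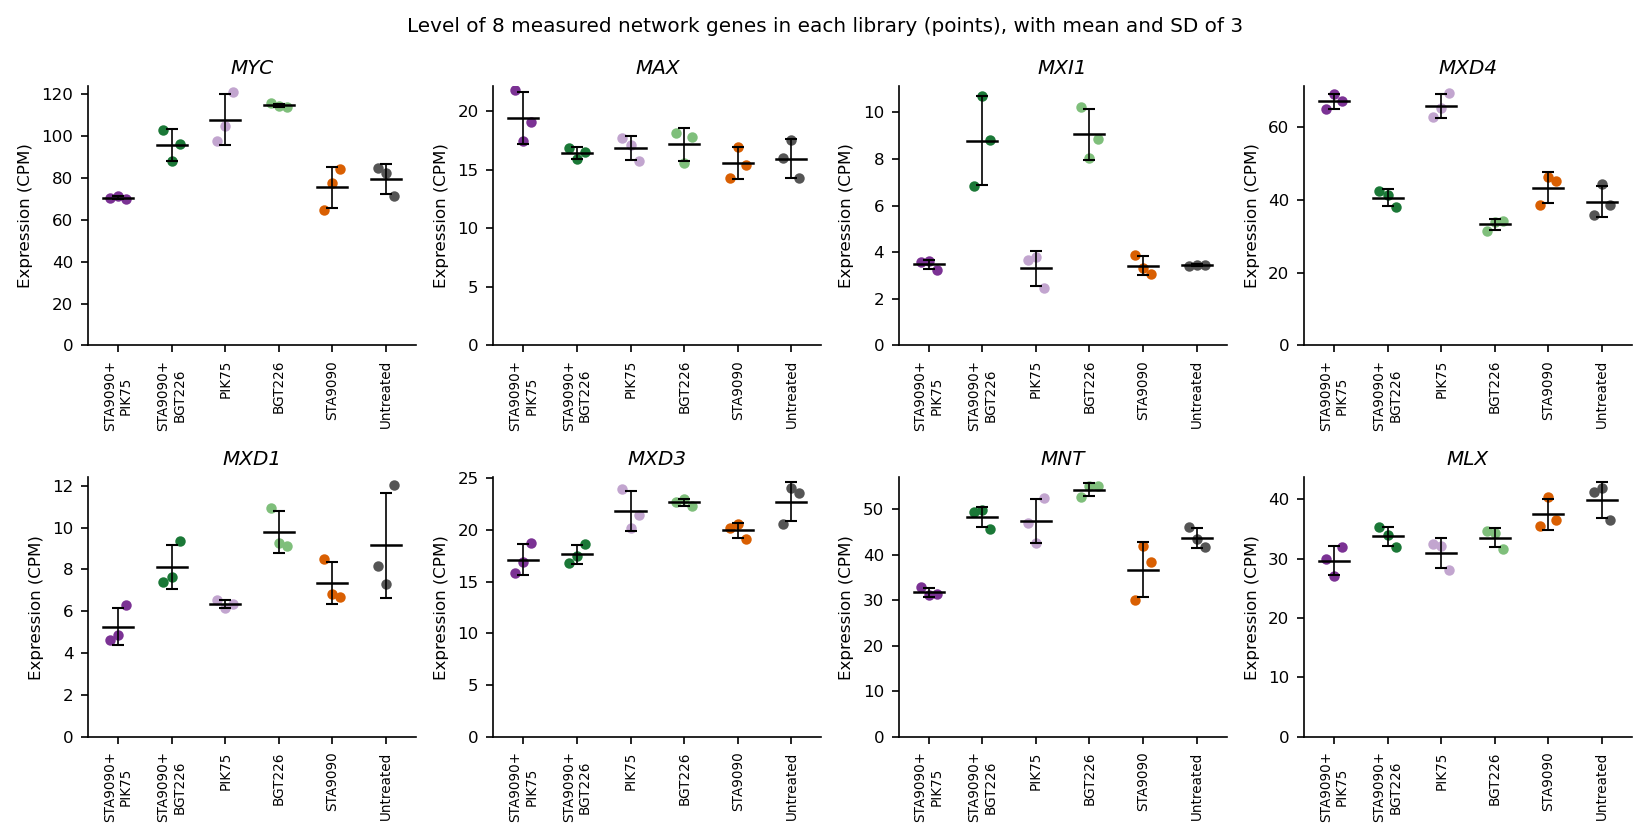
Level of the 8 tested network genes in CPM (y axis, from 0) in each library (points), with the mean and SD of 3 libraries (bars), for the 6 groups on the x axis. MXI1 lies between 6.86 and 10.7 CPM in both groups with BGT226 and at or below 3.87 CPM in all others, and MXD4 lies between 63.0 and 69.5 CPM in both groups with PIK75 and at or below 46.4 CPM in all others.

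MYC was the highest network gene per length in each of the 6 groups, and its mRNA rose under PIK75 or BGT226 alone. The gene lies on the plus strand of chromosome 8 at 127735434 to 127741434 (hg38, GENCODE 29). It stood at 70.6, 71.5 and 70.0 CPM in STA9090+PIK75 cells, at 103, 88.0 and 96.5 CPM in STA9090+BGT226 cells, at 97.7, 105 and 121 CPM in PIK75 cells, at 116, 115 and 114 CPM in BGT226 cells, and at 64.8, 77.4 and 84.3 CPM in STA9090 cells, against 84.8, 82.5 and 71.6 CPM in untreated cells. Every library with PIK75 alone, BGT226 alone or STA9090+BGT226 was above every untreated library, the STA9090 libraries overlapped the untreated ones, and the 3 libraries of STA9090+PIK75 lay just under the lowest untreated library. Differences here are log2 fold changes from edgeR's quasi-likelihood test, with p adjusted by Benjamini-Hochberg over the 15787 genes and a threshold of 0.05. Against the untreated libraries, which all 5 treatments share, MYC rose by 0.44 in PIK75 cells (SE 0.0942, adjusted p = 0.00254), by 0.53 in BGT226 cells (SE 0.0940, adjusted p = 0.000293) and by 0.27 in STA9090+BGT226 cells (SE 0.0942, adjusted p = 0.0295). The edgeR log2 fold change was -0.17 in STA9090+PIK75 cells (95% interval -0.37 to 0.03, adjusted p = 0.165) and -0.08 in STA9090 cells (95% interval -0.28 to 0.12, adjusted p = 0.716). The call in STA9090+BGT226 cells was lost without untreated replicate 3 (0.17, adjusted p = 0.198 by edgeR), without STA9090+BGT226 replicate 1 (0.21, adjusted p = 0.127) and without STA9090+BGT226 replicate 3 (0.24, adjusted p = 0.0993). Without STA9090 replicate 1 the STA9090 value was 0.01.

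The other MYC genes were near or at the detection limit. MYCN, the paralogue best known from neuroblastoma (chromosome 2, 15940564 to 15947007, plus strand), had 0 counts in all 18 libraries, which allows at most 0.139 to 0.296 CPM depending on the library, a limit for counting error only. MYCL, the paralogue first found in small cell lung cancer (chromosome 1, 39895426 to 39902256, minus strand), had 2, 1 and 2 counts in STA9090+PIK75 cells, 7, 4 and 9 in STA9090+BGT226 cells, 2, 1 and 2 in PIK75 cells, 7, 3 and 5 in BGT226 cells and 5, 0 and 2 in STA9090 cells, against 3, 4 and 1 in untreated cells. These counts were too low for the filter. In a fit with no filter the log2 fold change of MYCL against untreated was 1.17 in STA9090+BGT226 cells (adjusted p = 0.331, edgeR) and 0.79 in BGT226 cells (adjusted p = 0.669, edgeR), so no difference was detectable at this depth.

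MAX, the partner that MYC and its competitors share (chromosome 14, 65006174 to 65102695, minus strand), varied little. It stood at 21.8, 17.4 and 19.1 CPM in STA9090+PIK75 cells, 16.9, 15.9 and 16.5 CPM in STA9090+BGT226 cells, 17.7, 17.2 and 15.7 CPM in PIK75 cells, 18.1, 15.6 and 17.9 CPM in BGT226 cells and 14.3, 16.98 and 15.5 CPM in STA9090 cells, against 16.0, 17.6 and 14.3 CPM in untreated cells. Each treated group overlapped the untreated one. In STA9090+PIK75 cells MAX passed the edgeR test, with a log2 fold change of 0.27 (SE 0.102, adjusted p = 0.0386). That call was lost with DESeq2 (0.28, adjusted p = 0.0710), with no filter on low counts (0.25, adjusted p = 0.118), with only those 2 groups in the fit (0.28, adjusted p = 0.0621) and without STA9090+PIK75 replicate 1 (0.19, adjusted p = 0.203) or replicate 3 (0.29, adjusted p = 0.0690) or untreated replicate 1 (0.27, adjusted p = 0.0852) or replicate 3 (0.19, adjusted p = 0.189). In the other 4 treatments the log2 fold change of MAX was between -0.04 and 0.10, with adjusted p from 0.490 to 0.874 (edgeR).

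MXI1 was the member with the largest difference from untreated cells, and the difference came with BGT226 and not with PIK75. MXI1, also called MXD2, is a MAX partner that represses MYC targets, and in other human cells it is a known target of FOXO factors, which PI3K and AKT signalling keeps out of the nucleus. The gene lies on the plus strand of chromosome 10 at 110207605 to 110287365 and has several starts, of which RefSeq (GRCh38.p14) gives 3 promoter windows. Of these windows 2 hold the forkhead letters GTAAACA on either strand, which 3.42% of all 35116 RefSeq promoter windows of 300 bases hold, and none holds CACGTG. Those 2 windows are shown from 250 bases before to 20 bases after the start site, with the motif in capitals, at chr10:110209981-110210250 and chr10:110225746-110226015, both on the plus strand. They are called upstream and downstream relative to each other. The window not shown, at chr10:110207355-110207654, lies upstream of both and holds neither GTAAACA nor CACGTG.
MXI1 upstream start: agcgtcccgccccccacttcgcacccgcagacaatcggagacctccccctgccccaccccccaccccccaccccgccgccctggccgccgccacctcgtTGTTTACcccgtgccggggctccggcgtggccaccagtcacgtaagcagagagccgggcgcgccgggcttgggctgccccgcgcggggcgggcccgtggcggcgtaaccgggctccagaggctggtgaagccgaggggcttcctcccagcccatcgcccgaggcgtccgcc
MXI1 downstream start: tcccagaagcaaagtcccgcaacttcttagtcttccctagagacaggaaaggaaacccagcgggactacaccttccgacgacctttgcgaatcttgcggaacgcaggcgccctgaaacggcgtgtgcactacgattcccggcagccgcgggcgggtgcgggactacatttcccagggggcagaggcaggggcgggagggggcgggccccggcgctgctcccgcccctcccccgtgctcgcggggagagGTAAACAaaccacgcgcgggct
The match starts at position -151 in the upstream window, where the letters read TGTTTAC because the motif is on the minus strand, and at position -2 in the downstream window, where it spans the start site. A match is a run of letters and no measured site, and the counts per gene do not tell which start was used.

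MXI1 stood at 3.57, 3.61 and 3.26 CPM in STA9090+PIK75 cells, 6.86, 10.7 and 8.81 CPM in STA9090+BGT226 cells, 3.69, 3.78 and 2.45 CPM in PIK75 cells, 10.3, 8.05 and 8.86 CPM in BGT226 cells and 3.87, 3.30 and 3.07 CPM in STA9090 cells, against 3.41, 3.45 and 3.47 CPM in untreated cells. All 6 libraries with BGT226 were above all 12 libraries without it. The gene rose in BGT226 cells by 1.39 (SE 0.174, adjusted p = 6.95e-06, edgeR), a 2.61-fold level, and in STA9090+BGT226 cells by 1.35 (SE 0.174, adjusted p = 4.42e-06, edgeR). In STA9090+PIK75, PIK75 and STA9090 cells the log2 fold change was 0.01, -0.05 and 0.00, with 95% intervals of -0.40 to 0.43, -0.46 to 0.36 and -0.41 to 0.41. MXI1 rested on 29 to 191 counts a library, so its intervals are among the wider ones here.

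MXD4, a MAX partner linked to differentiation and cell cycle exit in mouse and human cells, rose with PIK75 and not with BGT226. It lies on the minus strand of chromosome 4 at 2247432 to 2262294. Its RefSeq promoter window, shown at chr4:2262090-2262359 on the minus strand with the E-box in capitals, holds CACGTG starting at position -238. That motif is in 7.26% of the 35116 windows of 300 bases, and the MNT window given further on and the MLX window (position -50) hold it too.
MXD4 start: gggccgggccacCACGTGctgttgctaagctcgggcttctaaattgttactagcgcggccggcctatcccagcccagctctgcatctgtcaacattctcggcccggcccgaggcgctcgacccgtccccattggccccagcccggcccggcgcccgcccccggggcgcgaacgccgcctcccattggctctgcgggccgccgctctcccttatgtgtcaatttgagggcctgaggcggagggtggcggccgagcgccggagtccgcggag
MXD4 stood at 65.2, 69.2 and 67.2 CPM in STA9090+PIK75 cells, 42.5, 41.4 and 38.2 CPM in STA9090+BGT226 cells, 63.0, 65.4 and 69.5 CPM in PIK75 cells, 31.5, 34.1 and 34.3 CPM in BGT226 cells and 38.6, 46.4 and 45.2 CPM in STA9090 cells, against 35.9, 44.4 and 38.6 CPM in untreated cells. The 6 libraries with PIK75 were above the 12 libraries without it, and the BGT226 libraries were below the untreated ones. The gene rose by 0.76 in STA9090+PIK75 cells (SE 0.0823, adjusted p = 4.50e-07, edgeR) and by 0.73 in PIK75 cells (SE 0.0824, adjusted p = 2.85e-06, edgeR). In BGT226 cells it fell by 0.25 (SE 0.0850, adjusted p = 0.0334, edgeR), and in STA9090+BGT226 cells its log2 fold change was 0.04 (95% interval -0.14 to 0.21). The BGT226 call was lost without untreated replicate 2 (-0.16, adjusted p = 0.210) and without BGT226 replicate 1 (-0.21, adjusted p = 0.120), replicate 2 (-0.26, adjusted p = 0.0618) or replicate 3 (-0.27, adjusted p = 0.0608).

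MXD1, the founding MXD gene, which rises as many cell types differentiate, was lower with PIK75. It lies on the plus strand of chromosome 2 at 69897688 to 69942945. It stood at 4.64, 4.86 and 6.29 CPM in STA9090+PIK75 cells, 7.42, 7.62 and 9.34 CPM in STA9090+BGT226 cells, 6.56, 6.14 and 6.34 CPM in PIK75 cells, 10.9, 9.25 and 9.14 CPM in BGT226 cells and 8.50, 6.84 and 6.68 CPM in STA9090 cells, against 8.17, 7.30 and 12.0 CPM in untreated cells. The untreated libraries spread widely, with replicate 3 apart from the others, and both groups with PIK75 were below all 3 of them. MXD1 fell by 0.78 in STA9090+PIK75 cells (SE 0.177, adjusted p = 0.00158, edgeR) and by 0.52 in PIK75 cells (SE 0.173, adjusted p = 0.0414, edgeR). The PIK75 call did not hold without untreated replicate 3 (-0.28, adjusted p = 0.278), without PIK75 replicate 1 (-0.55, adjusted p = 0.0726), replicate 2 (-0.50, adjusted p = 0.107) or replicate 3 (-0.52, adjusted p = 0.0918), with DESeq2 (-0.51, adjusted p = 0.0536) or with only those 2 groups in the fit (-0.51, adjusted p = 0.0826). MXD1 shares 3.73% of its exon bases with SNRNP27 on the same strand, for which the edgeR log2 fold change was between -0.20 and 0.10 in the 5 treatments, with adjusted p from 0.294 to 0.791.

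MXD3, an MXD protein that is expressed in proliferating cells, was lower in both combinations. It lies on the minus strand of chromosome 5 at 177301461 to 177312757 and shares 22.5% of its exon bases with PRELID1 on the opposite strand and 18.0% with RAB24 on the same strand, so its counts are uncertain where reads could be divided between these genes. MXD3 stood at 15.8, 16.9 and 18.7 CPM in STA9090+PIK75 cells, 16.8, 17.5 and 18.6 CPM in STA9090+BGT226 cells, 24.0, 20.2 and 21.4 CPM in PIK75 cells, 22.7, 23.0 and 22.3 CPM in BGT226 cells and 20.2, 20.5 and 19.2 CPM in STA9090 cells, against 20.6, 24.1 and 23.5 CPM in untreated cells. Every library of either combination was below every library of the other 4 groups. It fell by 0.41 in STA9090+PIK75 cells (SE 0.0890, adjusted p = 0.00122, edgeR) and by 0.36 in STA9090+BGT226 cells (SE 0.0879, adjusted p = 0.00255, edgeR). With STA9090 alone the log2 fold change was -0.19 (unadjusted p = 0.0447, adjusted p = 0.258, edgeR), with all 3 libraries below the untreated ones. Of the genes that overlap it, PRELID1, like MXD3, fell in STA9090+BGT226 cells, by 0.82 (adjusted p = 2.40e-06, edgeR), and had a log2 fold change of 0.00 in STA9090+PIK75 cells. RAB24 rose by 0.35 in STA9090+BGT226 cells (adjusted p = 0.0381, edgeR) and had 0.05 in STA9090+PIK75 cells. In BGT226 cells PRELID1 fell by 0.64 (adjusted p = 7.42e-05, edgeR) and RAB24 rose by 0.41 (adjusted p = 0.021, edgeR). MXD3 had a log2 fold change of -0.007 there (adjusted p = 0.97, edgeR). The part of shared reads in the MXD3 result was not tested.

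MNT, a MAX partner present in most proliferating cells and an antagonist of MYC, was higher with BGT226 alone and lower with STA9090+PIK75. It lies on the minus strand of chromosome 17 at 2384060 to 2401118. Its RefSeq promoter window, at chr17:2401041-2401310 on the minus strand, holds the E-box CACGTG starting at position -193, in capitals.
MNT start: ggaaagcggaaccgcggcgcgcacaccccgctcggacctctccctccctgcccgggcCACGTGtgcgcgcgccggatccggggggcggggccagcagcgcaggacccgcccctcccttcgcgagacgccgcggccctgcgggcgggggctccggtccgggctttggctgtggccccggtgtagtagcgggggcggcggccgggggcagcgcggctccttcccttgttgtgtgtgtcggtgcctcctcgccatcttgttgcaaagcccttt
MNT stood at 32.95, 31.1 and 31.3 CPM in STA9090+PIK75 cells, 49.4, 49.8 and 45.7 CPM in STA9090+BGT226 cells, 47.0, 42.7 and 52.5 CPM in PIK75 cells, 52.7, 55.0 and 55.2 CPM in BGT226 cells and 30.1, 41.9 and 38.3 CPM in STA9090 cells, against 46.1, 43.4 and 41.7 CPM in untreated cells. The STA9090+PIK75 libraries were all below and the BGT226 libraries all above the untreated ones. The gene fell by 0.46 in STA9090+PIK75 cells (SE 0.0970, adjusted p = 0.000835, edgeR) and rose by 0.31 in BGT226 cells (SE 0.0934, adjusted p = 0.0157, edgeR). The BGT226 call was lost without untreated replicate 3 (0.28, adjusted p = 0.0634) and without BGT226 replicate 3 (0.30, adjusted p = 0.0601). In STA9090+BGT226 and PIK75 cells the log2 fold change was 0.142 and 0.115 (adjusted p = 0.242 and 0.444, edgeR). Libraries of both these groups overlapped the untreated ones. With STA9090 alone the log2 fold change was -0.26 (SE 0.0958, unadjusted p = 0.0143, adjusted p = 0.148, edgeR). MNT shares 12.2% of its exon bases with the antisense gene AC006435.1, which had at most 2 counts in any library.

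MLX, the partner of MondoA, was lower in 4 of the 5 treatments. It lies on the plus strand of chromosome 17 at 42567068 to 42573239 and shares 18.1% of its exon bases with PSMC3IP on the opposite strand, so its counts are uncertain too. MLX stood at 30.0, 27.0 and 31.9 CPM in STA9090+PIK75 cells, 35.3, 34.0 and 32.0 CPM in STA9090+BGT226 cells, 32.5, 32.2 and 28.1 CPM in PIK75 cells, 34.6, 34.4 and 31.7 CPM in BGT226 cells and 35.5, 40.4 and 36.5 CPM in STA9090 cells, against 41.2, 41.9 and 36.5 CPM in untreated cells. The 4 groups with a PI3K inhibitor lay below all untreated libraries, and the STA9090 libraries overlapped them. MLX fell by 0.43 in STA9090+PIK75 cells (SE 0.0848, adjusted p = 0.000454), by 0.24 in STA9090+BGT226 cells (SE 0.0834, adjusted p = 0.0241), by 0.37 in PIK75 cells (SE 0.0845, adjusted p = 0.00438) and by 0.26 in BGT226 cells (SE 0.0836, adjusted p = 0.0265), all by edgeR. Both calls with BGT226 were lost when some single libraries were left out, with values that moved little. With untreated replicate 1 left out the BGT226 value was -0.24 (adjusted p = 0.0794) and the STA9090+BGT226 value -0.24 (adjusted p = 0.0578), with untreated replicate 2 left out they were -0.22 (adjusted p = 0.0992) and -0.21 (adjusted p = 0.0915), and with replicate 3 of the treated group left out they were -0.21 (adjusted p = 0.128) and -0.23 (adjusted p = 0.0757), all by edgeR. PSMC3IP rose by 0.56 in STA9090+PIK75 cells (adjusted p = 0.00386, edgeR).

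Levels between members were compared as CPM per kilobase of annotated exon, which takes all transcripts of a gene together. In untreated cells MYC led with 26.5 ± 2.35 CPM per kilobase, followed by MLX with 9.36 ± 0.700, MXD4 with 5.61 ± 0.615, MNT with 5.01 ± 0.253, MXD3 with 4.41 ± 0.364, MAX with 3.61 ± 0.371, MXD1 with 1.44 ± 0.394 and MXI1 with 0.747 ± 0.00696 (SD, n = 3 each). Among neighbours in that order only MXD4 and MNT overlapped. MXD4 stood above MLX in both groups with PIK75, at 9.52 ± 0.288 against 6.96 ± 0.579 CPM per kilobase in STA9090+PIK75 cells and 9.35 ± 0.468 against 7.26 ± 0.582 in PIK75 cells, and MXI1 stood above MXD1 in both groups with BGT226. MYC made up 44.5 ± 1.002% of the summed per-length level of the network in STA9090+PIK75 cells, 51.9 ± 2.22% in STA9090+BGT226 cells, 53.0 ± 2.98% in PIK75 cells, 55.6 ± 0.164% in BGT226 cells and 46.9 ± 2.64% in STA9090 cells, against 46.7 ± 1.93% in untreated cells. MXD4 made up 18.0 ± 0.706% in STA9090+PIK75 cells, 13.8 ± 0.173% in PIK75 cells and 6.86 ± 0.384% in BGT226 cells, against 9.90 ± 0.989% in untreated cells (SD, n = 3 each). These shares describe mRNA and were not tested.

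**Figure D2:**
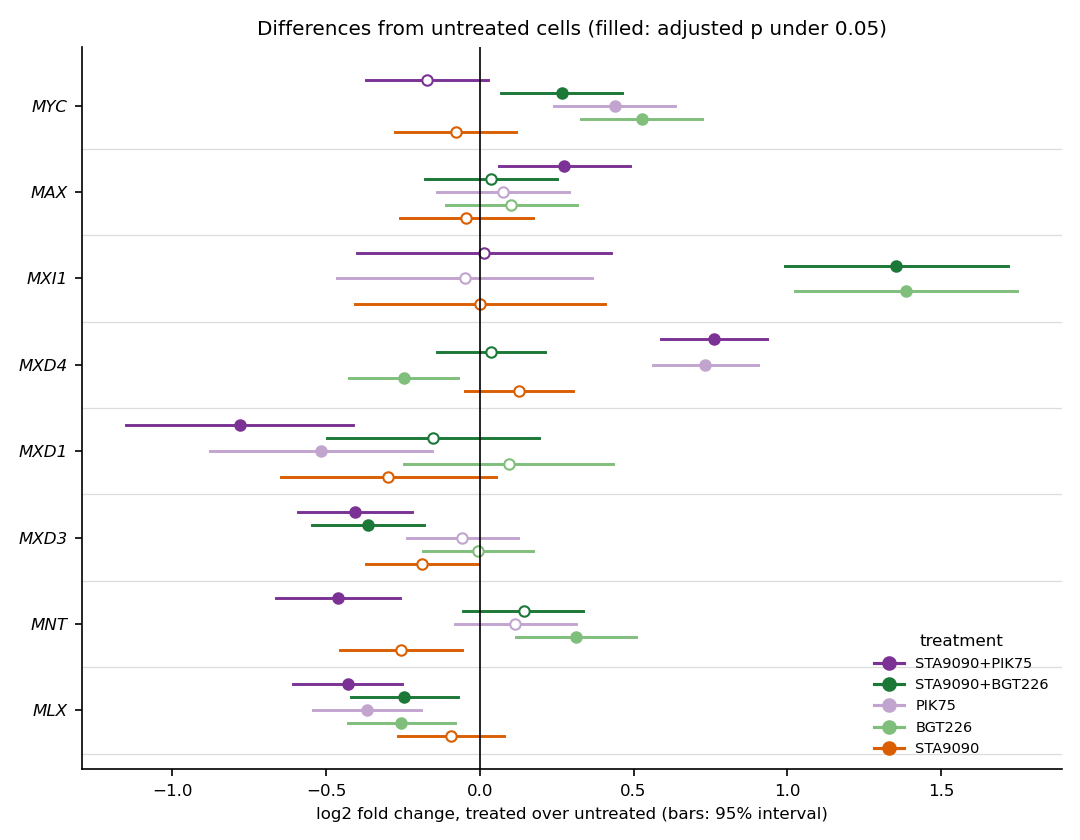
Log2 fold change of the 8 tested members (rows) in each of the 5 treatments over untreated cells (x axis), with 95% intervals as bars and filled points where the edgeR adjusted p was under 0.05. MXI1 stands at 1.39 with BGT226 and 1.35 with STA9090+BGT226 and near 0 in the other treatments, and MXD4 stands at 0.73 with PIK75 and 0.76 with STA9090+PIK75.

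Of the 8 tested members, 2 rose and 4 fell in STA9090+PIK75 cells, where 38.4% of all tested genes passed, 18.3% higher and 20.1% lower. In STA9090+BGT226 cells 2 rose and 2 fell, with 39.8% of all genes, 19.4% higher and 20.4% lower. In PIK75 cells 2 rose and 2 fell, with 18.7% of all genes, 8.49% higher and 10.2% lower. In BGT226 cells 3 rose and 2 fell, with 28.6% of all genes, 12.8% higher and 15.7% lower. In STA9090 cells none passed, with 2.84% of all genes, 1.16% higher and 1.68% lower. DESeq2 also called 0 members there. By edgeR MXD3 and MNT had an unadjusted p under 0.05, as did 2902 of all 15787 tested genes. Counts out of 8 are coarse beside such shares and are given as a description. The median log2 fold change of the 8 members was -0.29 in STA9090+PIK75 cells, 0.04 in STA9090+BGT226 cells, 0.01 in PIK75 cells, 0.10 in BGT226 cells and -0.09 in STA9090 cells, beside medians between 0.00 and 0.03 over all tested genes. No direction was common to the network. With BGT226 alone MYC, MXI1 and MNT rose and MXD4 and MLX fell. With PIK75 alone MYC and MXD4 rose and MXD1 and MLX fell. Without untreated replicate 2 the count for BGT226 was 3, where 1630 of 16136 genes passed as higher and 1966 as lower. Without BGT226 replicate 3 it was 2, where 1414 of 16117 genes were higher and 1850 lower. The full fit had 2028 of 15787 higher and 2485 lower. Without STA9090+BGT226 replicate 3 the count for that combination was 2, where 2399 of 16081 genes were higher and 2983 lower. The full fit had 3059 of 15787 higher and 3228 lower.

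Each combination was next set against its parts, to see what each agent added. Adding STA9090 to PIK75 lowered MYC, MNT and MXD3, 3 of the 8 members, where 25.3% of all tested genes passed, 11.3% higher and 14% lower. MYC averaged 70.7 ± 0.727 CPM in STA9090+PIK75 cells and 108 ± 12.1 CPM in PIK75 cells (SD, n = 3 each), and fell by 0.61 (SE 0.0948, adjusted p = 8.18e-05, edgeR), and its 3 libraries with the combination lay within the range of the STA9090 libraries. MNT averaged 31.8 ± 1.004 CPM in STA9090+PIK75 cells and 47.4 ± 4.93 CPM in PIK75 cells (SD, n = 3 each), and fell by 0.58 (SE 0.0968, adjusted p = 0.000184, edgeR). MXD3 fell by 0.35 (SE 0.0896, adjusted p = 0.00672, edgeR), a call that was lost without PIK75 replicate 1 (-0.27, adjusted p = 0.0550). For MXI1, MXD4 and MLX the step on PIK75 was between -0.06 and 0.06, with adjusted p from 0.637 to 0.851, the 95% interval of the MXD4 difference being -0.14 to 0.20.

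Adding STA9090 to BGT226 changed 1 member past the threshold, where 2.69% of all tested genes passed, 0.988% higher and 1.7% lower. MXD3 averaged 17.6 ± 0.941 CPM in STA9090+BGT226 cells and 22.7 ± 0.330 CPM in BGT226 cells (SD, n = 3 each), and fell by 0.36 (SE 0.0876, adjusted p = 0.0325, edgeR). That call was lost without any 1 of 5 of the 6 libraries compared, namely BGT226 replicate 1, 2 or 3 and STA9090+BGT226 replicate 1 or 2, with values from -0.38 to -0.32 and adjusted p from 0.0843 to 0.123. MYC averaged 95.8 ± 7.47 CPM in STA9090+BGT226 cells and 115 ± 0.916 CPM in BGT226 cells (SD, n = 3 each), with no overlap, and its log2 fold change was -0.26 (SE 0.0933, unadjusted p = 0.0113, adjusted p = 0.148, edgeR). MXD4 had 0.28 (SE 0.0846, adjusted p = 0.0771, edgeR), again with no overlap. With only those 2 groups in the fit both passed, MYC at adjusted p = 0.0166 and MXD4 at adjusted p = 0.0130. MXI1 had -0.03 (95% interval -0.35 to 0.29).

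**Figure D3:**
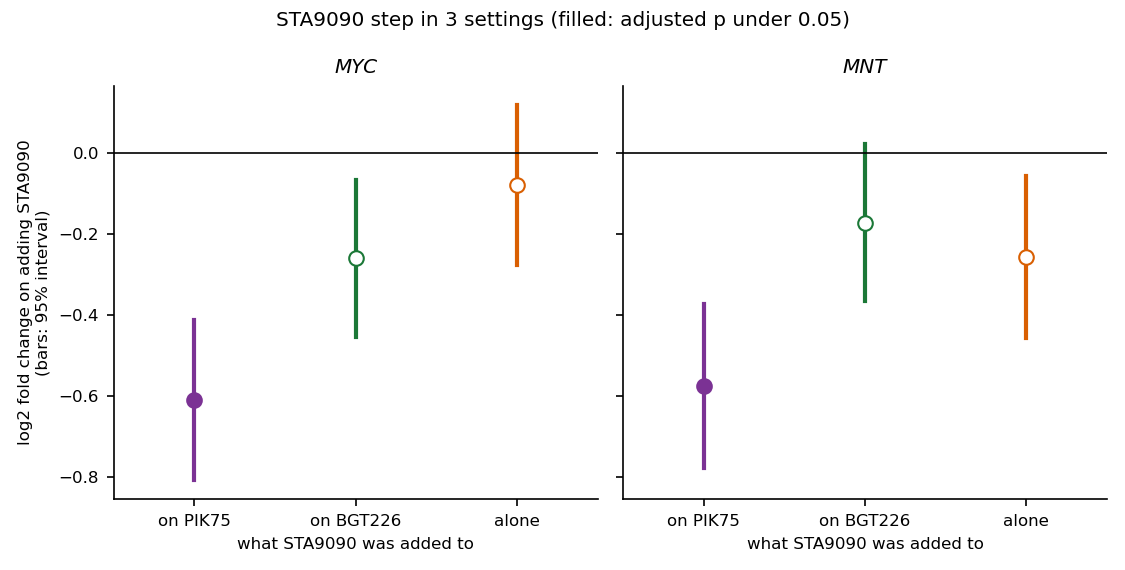
Log2 fold change of MYC and MNT on adding STA9090 (y axis) to PIK75, to BGT226 or to no other agent (x axis), with 95% intervals; filled points have an edgeR adjusted p under 0.05. For MYC the step is -0.61 on PIK75, -0.26 on BGT226 and -0.08 alone.

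Whether the STA9090 step differed with its setting was tested as an interaction. The step of MYC was -0.61 on PIK75 and -0.08 alone, and the interaction of STA9090 with PIK75 was -0.53 (SE 0.134, adjusted p = 0.0166, edgeR). MYC was the only member of 8 past the threshold in it, where 9.27% of all tested genes passed, 3.54% with a positive and 5.73% with a negative interaction. Leaving out each library in turn gave -0.62 to -0.44, each past the threshold. With only the 4 groups concerned in the fit it was -0.52, with adjusted p = 0.0521. MNT had an interaction of -0.32 (SE 0.136, adjusted p = 0.155, edgeR), and -0.44 (adjusted p = 0.0196) without STA9090 replicate 1, the library that stood apart. In the interaction of STA9090 with BGT226 none of the 8 members passed, where 0.00633% of all tested genes passed by edgeR. No member had an unadjusted p under 0.05 by edgeR in this interaction, where 1490 of 15787 genes did. DESeq2 also called 0 members there, and MYC had -0.18 in it (95% interval -0.46 to 0.10).

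Seen from the other side, adding PIK75 to STA9090 raised MXD4 and MAX and lowered MLX and MXD1, 4 of the 8 members, where 37.5% of all tested genes passed, 17.7% higher and 19.8% lower. MXD4 rose by 0.63 (SE 0.0819, adjusted p = 5.24e-06, edgeR), and MLX fell by 0.34 (SE 0.0851, adjusted p = 0.00392, edgeR). The calls of MAX (0.32, adjusted p = 0.0186) and MXD1 (-0.48, adjusted p = 0.0409) were both lost without STA9090 replicate 1 (MAX 0.26, adjusted p = 0.0834; MXD1 -0.35, adjusted p = 0.197) and without STA9090+PIK75 replicate 1 (MAX 0.23, adjusted p = 0.116; MXD1 -0.41, adjusted p = 0.130), and that of MXD1 also without STA9090+PIK75 replicate 2 (-0.42, adjusted p = 0.128) and with DESeq2 (-0.48, adjusted p = 0.0555). With only those 2 groups in the fit neither passed, MAX at adjusted p = 0.0516 and MXD1 at adjusted p = 0.0554. Without STA9090 replicate 1 MNT passed as lower (-0.33, adjusted p = 0.00601), and without STA9090+PIK75 replicate 3 so did MXD3 (-0.28, adjusted p = 0.0420). Adding BGT226 to STA9090 raised MXI1, MNT and MYC, 3 of the 8 members, where 40.4% of all tested genes passed, 19.5% higher and 20.9% lower. MXI1 rose by 1.35 (SE 0.173, adjusted p = 3.84e-06, edgeR), MNT by 0.40 (SE 0.0950, adjusted p = 0.00221, edgeR) and MYC by 0.35 (SE 0.0944, adjusted p = 0.00618, edgeR). Without STA9090 replicate 1 MYC had 0.24 (adjusted p = 0.0526).

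PIK75 and BGT226 were set against each other directly, since both act on PI3K and BGT226 also on mTOR. Whether a difference between them came from mTOR or from any other target of either agent was not tested. The stated dose was the same, but doses equal in nM need not be equal in effect on PI3K, which was not measured here. Between the single agents, 1 member was higher and 2 were lower in PIK75 cells, where 32% of all tested genes passed, 16.5% higher and 15.5% lower. MXI1 averaged 3.31 ± 0.741 CPM in PIK75 cells and 9.05 ± 1.11 CPM in BGT226 cells (SD, n = 3 each), a log2 difference of -1.44 (SE 0.176, adjusted p = 3.21e-06, edgeR). MXD4 averaged 66.0 ± 3.30 CPM in PIK75 cells and 33.3 ± 1.53 CPM in BGT226 cells (SD, n = 3 each), a difference of 0.98 (SE 0.0833, adjusted p = 2.65e-08, edgeR). MXD1 differed by -0.61 (SE 0.171, adjusted p = 0.00950, edgeR). For MYC, which rose with both, the difference was -0.09 (95% interval -0.28 to 0.11). MNT passed as lower in PIK75 cells without PIK75 replicate 3 (-0.28, adjusted p = 0.0450).

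The same contrast was made with STA9090 present. Between STA9090+PIK75 and STA9090+BGT226 cells 1 member was higher and 4 were lower in STA9090+PIK75 cells, where 43.3% of all tested genes passed, 20.9% higher and 22.4% lower. MXI1 differed by -1.34 (SE 0.174, adjusted p = 3.39e-06), MNT by -0.60 (SE 0.0962, adjusted p = 3.77e-05), MYC by -0.44 (SE 0.0947, adjusted p = 0.000813) and MXD1 by -0.63 (SE 0.177, adjusted p = 0.00686), and MXD4 by 0.73 (SE 0.0819, adjusted p = 5.58e-07), all by edgeR. The MXD1 call was lost without STA9090+BGT226 replicate 3 (-0.49, adjusted p = 0.0579). MAX, at 0.24 (adjusted p = 0.0631), passed without STA9090+PIK75 replicate 2 (0.31, adjusted p = 0.0311) and with RLE scaling (0.25, adjusted p = 0.0467).

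**Figure D4:**
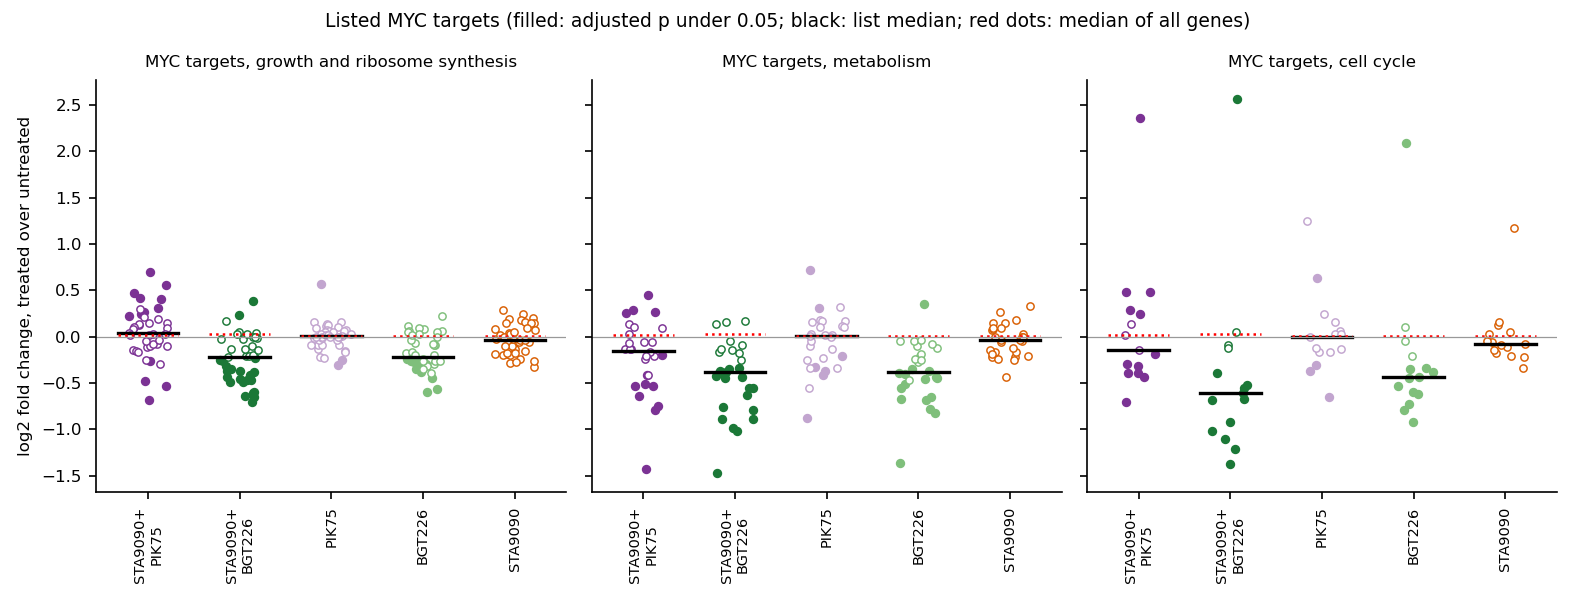
Log2 fold change over untreated cells (y axis) of the listed MYC targets for growth and ribosome synthesis (40 genes), metabolism (28) and the cell cycle (15), 1 point a gene, in the 5 treatments (x axis); filled points have an edgeR adjusted p under 0.05, black bars are list medians and red dots the median of all tested genes. The medians with BGT226 lie between -0.43 and -0.22, while those with PIK75 lie between -0.01 and 0.01.

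Listed targets of MYC did not move in 1 direction with the MYC mRNA. These lists, and those in the paragraphs below, were chosen with earlier results of these data known. Their counts are therefore given as a description. With BGT226, where MYC mRNA was higher, 1 of 15 tested cell cycle targets rose and 11 fell (median -0.43), 1 of 28 metabolic targets rose and 15 fell (median -0.38), and 0 of 40 growth and ribosome targets rose and 12 fell (median -0.23), while 12.8% of all genes rose and 15.7% fell. CDC25A, a phosphatase that activates cyclin-dependent kinases, averaged 45.7 ± 2.02 CPM in BGT226 cells and 86.3 ± 9.35 CPM in untreated cells (SD, n = 3 each), and fell by 0.92 (SE 0.0892, adjusted p = 2.95e-07, edgeR). TFRC, the transferrin receptor, averaged 260 ± 6.26 CPM in BGT226 cells and 670 ± 14.8 CPM in untreated cells (SD, n = 3 each), and fell by 1.37 (SE 0.0914, adjusted p = 2.61e-09, edgeR). NOP2, a nucleolar RNA methyltransferase, fell by 0.60 (adjusted p = 3.74e-06, edgeR), and PA2G4, a growth regulator, by 0.57 (adjusted p = 1.32e-05, edgeR). CTPS1, the enzyme that makes CTP, fell by 0.65 (adjusted p = 7.25e-07, edgeR). Without BGT226 replicate 3 the 12 growth calls became 7.

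STA9090+BGT226 cells also had more listed targets lower than higher. Of the cell cycle targets 1 rose and 11 fell (median -0.61), of the metabolic ones 0 rose and 18 fell (median -0.39), and of the growth ones 2 rose and 20 fell (median -0.23), beside 19.4% of all genes higher and 20.4% lower. E2F1 and E2F2, which drive entry into S phase, fell by 1.11 (adjusted p = 1.48e-08, edgeR) and 1.22 (adjusted p = 2.32e-08, edgeR). In STA9090+PIK75 cells the calls were divided: 5 rose and 7 fell for the cell cycle, 4 and 9 for metabolism and 9 and 4 for growth, beside 18.3% of all genes higher and 20.1% lower. CKS1B, a subunit of cyclin-dependent kinases, rose by 0.48 (adjusted p = 0.000174, edgeR), and NPM1, nucleophosmin, by 0.47 (adjusted p = 0.000191, edgeR). LDHA, lactate dehydrogenase A, fell by 1.43 (adjusted p = 1.24e-09, edgeR).

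With PIK75, where MYC mRNA was also higher, the list medians lay near that of all genes, and 18.7% of all genes passed. For the cell cycle 1 rose and 3 fell (median -0.01), for metabolism 2 rose and 5 fell (median 0.00), and for growth 1 rose and 2 fell (median 0.01), beside 8.49% of all genes higher and 10.2% lower. CAD, the enzyme that starts pyrimidine synthesis, rose by 0.71 (adjusted p = 1.07e-05, edgeR), and CCND2, cyclin D2, by 0.63 (adjusted p = 2.51e-06, edgeR). The metabolic count was 4 without PIK75 replicate 2, and the growth count was 1 without untreated replicate 1 or PIK75 replicate 3. In STA9090 cells no listed target passed by edgeR, beside 1.16% of all genes higher and 1.68% lower. DESeq2 called 1 cell cycle, 2 metabolic and 3 growth genes there, where it called 229 of 15787 genes higher and 384 lower. In PIK75 cells set directly against BGT226 cells, 9 of 15 cell cycle targets were higher and 0 lower, 14 of 28 metabolic ones higher and 0 lower, and 14 of 40 growth ones higher and 1 lower, beside 16.5% of all genes higher and 15.5% lower. For STA9090+PIK75 cells against STA9090+BGT226 cells, 13 cell cycle targets were higher and 0 lower, 13 metabolic ones higher and 5 lower, and 21 growth ones higher and 2 lower, beside 20.9% of all genes higher and 22.4% lower.

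Genes that MYC is known to repress gave 9 tested members. In STA9090+PIK75 cells 0 rose and 3 fell, in STA9090+BGT226 cells 1 rose and 2 fell, in PIK75 cells 1 rose and 3 fell, in BGT226 cells 1 rose and 2 fell, and in STA9090 cells none passed. Of all tested genes, 18.3% rose and 20.1% fell in STA9090+PIK75 cells, 19.4% and 20.4% in STA9090+BGT226 cells, 8.49% and 10.2% in PIK75 cells, 12.8% and 15.7% in BGT226 cells and 1.16% and 1.68% in STA9090 cells. CDKN1A, the cell cycle inhibitor p21, which several other pathways also control, averaged 45.9 ± 2.13 CPM in STA9090+PIK75 cells, 30.7 ± 2.75 CPM in STA9090+BGT226 cells, 80.1 ± 2.21 CPM in PIK75 cells, 37.4 ± 1.61 CPM in BGT226 cells and 96.3 ± 6.76 CPM in STA9090 cells, against 96.8 ± 9.92 CPM in untreated cells (SD, n = 3 each). It fell by 1.08, 1.65, 0.27 and 1.38 in the first 4 of these (adjusted p = 3.22e-09, 2.17e-11, 0.0196 and 5.86e-10, edgeR). KLF6, a zinc finger factor, rose by 0.50 in BGT226 cells (adjusted p = 4.56e-05, edgeR). NDRG2 fell by 1.21 in STA9090+PIK75 cells (adjusted p = 2.32e-09, edgeR).

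TXNIP and ARRDC4, the arrestin-like targets of MondoA and MLX, were higher in both groups with BGT226, where MLX itself was lower. TXNIP averaged 45.2 ± 1.5 CPM in STA9090+PIK75 cells, 148 ± 8.74 CPM in STA9090+BGT226 cells, 42.2 ± 3.84 CPM in PIK75 cells, 132 ± 5.75 CPM in BGT226 cells and 40.2 ± 2.18 CPM in STA9090 cells, against 34.3 ± 4.10 CPM in untreated cells (SD, n = 3 each). It rose by 0.40 in STA9090+PIK75 cells (adjusted p = 0.00116), by 2.10 in STA9090+BGT226 cells (adjusted p = 9.91e-13), by 0.30 in PIK75 cells (adjusted p = 0.0208) and by 1.94 in BGT226 cells (adjusted p = 4.66e-12), all by edgeR. The PIK75 call was lost without untreated replicate 1, untreated replicate 3 or PIK75 replicate 2. ARRDC4 rose by 0.61 in STA9090+BGT226 cells (adjusted p = 0.00224, edgeR) and by 0.57 in BGT226 cells (adjusted p = 0.00586, edgeR), and fell by 0.45 in STA9090+PIK75 cells (adjusted p = 0.0340, edgeR). In STA9090+PIK75 cells 1 of these 2 calls was lost without untreated replicate 1, untreated replicate 3 or any single STA9090+PIK75 replicate.

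Other partners were read from lists of network proteins and corepressors. Of 6 further network proteins, MGA, which pairs with MAX and carries a T-box domain, rose by 0.39 in STA9090+PIK75 cells (adjusted p = 0.000154), by 0.47 in STA9090+BGT226 cells (adjusted p = 1.90e-05) and by 0.40 in BGT226 cells (adjusted p = 0.000189), all by edgeR. The only other call in that list against untreated cells was MYCBP2, a ubiquitin ligase that binds MYC, which fell by 0.34 in STA9090+PIK75 cells (adjusted p = 0.0228, edgeR). That list's count of 2 in STA9090+PIK75 cells was 1 without untreated replicate 1, untreated replicate 3 or STA9090+PIK75 replicate 1, and its count of 1 in STA9090+BGT226 cells was 2 without untreated replicate 1 or STA9090+BGT226 replicate 1 or 2. Of the 15 corepressor genes through which MXD proteins and MNT act, 0 rose and 6 fell in STA9090+PIK75 cells, 1 rose and 6 fell in STA9090+BGT226 cells, 0 rose and 2 fell in PIK75 cells and 1 rose and 5 fell in BGT226 cells. Over all tested genes 20.1%, 20.4%, 10.2% and 15.7% fell in these 4 treatments and 18.3%, 19.4%, 8.49% and 12.8% rose. In STA9090+PIK75 cells HDAC1, a histone deacetylase, fell by 0.91 (adjusted p = 2.76e-08) and SIN3B, the scaffold that MXD proteins bind, by 0.77 (adjusted p = 1.26e-07), both by edgeR. The BGT226 count was 3 without BGT226 replicate 3.

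MYC cofactors and regulators of MYC turnover were divided as well. They are given beside the share of all tested genes that passed in either direction, which was 38.4% in STA9090+PIK75 cells, 39.8% in STA9090+BGT226 cells, 18.7% in PIK75 cells, 28.6% in BGT226 cells and 2.84% in STA9090 cells. Of 20 cofactors 5 rose and 5 fell in STA9090+PIK75 cells, 3 and 8 in STA9090+BGT226 cells, 2 and 2 in PIK75 cells, 3 and 7 in BGT226 cells and 0 and 0 in STA9090 cells, where DESeq2 called 1. ZBTB17, the factor MIZ1 through which MYC represses, rose by 0.81 in STA9090+PIK75 cells (adjusted p = 7.09e-06, edgeR), and TRRAP, a histone acetyltransferase scaffold, fell by 0.59 (adjusted p = 8.32e-06, edgeR). RUVBL1, an ATPase of chromatin complexes, fell by 0.55 in BGT226 cells (adjusted p = 5.10e-06, edgeR). The PIK75 count of 4 was 2 without untreated replicate 2 or PIK75 replicate 3 and 1 without untreated replicate 3. Of 20 turnover genes 3 rose and 7 fell in STA9090+PIK75 cells, 2 and 10 in STA9090+BGT226 cells, 0 and 1 in PIK75 cells, 2 and 9 in BGT226 cells and 1 and 1 in STA9090 cells. PIM1, a kinase that stabilises MYC, rose by 0.95 in BGT226 cells (adjusted p = 2.27e-07, edgeR) and fell by 0.38 in STA9090 cells (adjusted p = 0.0383, edgeR), and USP28, a ubiquitin protease for MYC, rose by 0.70 in STA9090+PIK75 cells (adjusted p = 1.98e-06, edgeR). The BGT226 count of 11 was 7 without BGT226 replicate 3, the PIK75 count of 1 was 2 without untreated replicate 1, PIK75 replicate 1 or PIK75 replicate 3 and 3 without untreated replicate 2, and the STA9090 count of 2 was 0 without any single untreated replicate or STA9090 replicate 1 and 1 without STA9090 replicate 3.

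**Figure D5:**
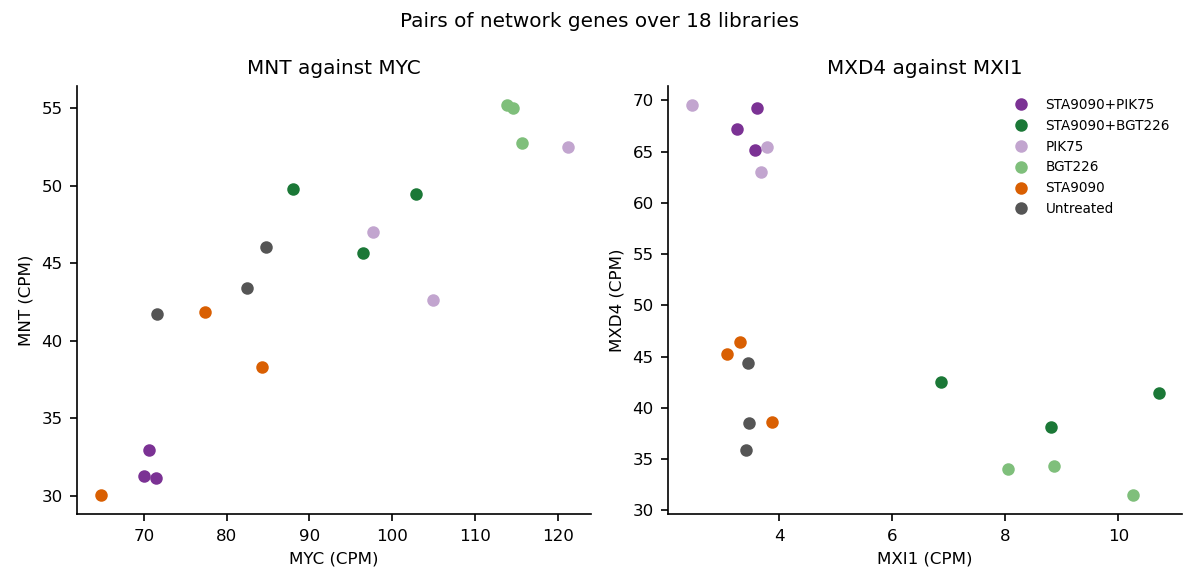
MNT against MYC (left) and MXD4 against MXI1 (right) in CPM, 1 point for each of the 18 libraries, coloured by group. MNT tends to be higher where MYC is higher, with STA9090 replicate 1 lowest in both at 30.1 CPM of MNT and 64.8 CPM of MYC, but PIK75 replicate 2 has 105 CPM of MYC and 42.7 CPM of MNT, below untreated replicate 1 with 46.1 CPM of MNT, and no library is high in both MXD4 and MXI1.

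Across the 18 libraries, which share 6 group means, the closest pair of members by log2 CPM was MYC and MNT, with Pearson's r = 0.881, and r = 0.659 once each group's mean was removed. The largest negative value was that of MXD1 and MXD4, at -0.857, and -0.547 within groups. MXI1 and MXD4 had -0.636, and -0.451 within groups. MYC and MXI1 had 0.475 over all libraries but -0.720 within groups, and MYC and MAX had -0.02. These values describe libraries that share treatments and scaling, and no test was made of them. The 3 protein-coding genes closest to MYC were IMPDH2, the enzyme that limits GTP synthesis and itself a listed MYC target (r = 0.926), CUX2, a homeobox gene (r = 0.914), and TMEM86B (r = 0.903). Within groups these had 0.749, 0.844 and 0.268 with MYC, in that order. IMPDH2 was the listed metabolic target that rose with BGT226 (0.35, adjusted p = 0.00132, edgeR).

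Closest to MXI1 were HBP1, a transcriptional repressor that slows the cell cycle (r = 0.960), TOMM20, a receptor for import into mitochondria (r = 0.957), and ZFHX4 (r = 0.954), with 0.257, 0.752 and 0.422 within groups. Closest to MXD4 were DUS2, a tRNA-modifying enzyme (r = 0.961), TSTA3, an enzyme of GDP-fucose synthesis (r = 0.947), and METTL3, which methylates adenosine in mRNA (r = 0.947). For MNT they were AHDC1, ADGRL1 and OGFOD3, with r from 0.954 to 0.962. MXD1 was closest to GJC1, NR1D2 and ARMCX3 (r from 0.903 to 0.914), MXD3 to SERP1, TXNDC5 and CADPS (r from 0.876 to 0.904), MLX to FOXJ2, CS and ACTN2 (r from 0.899 to 0.919), and MAX to KAT7, KIF9 and THSD1 (r from 0.852 to 0.864), each over the same 18 libraries. For these 18 neighbours of MXD4, MNT, MXD1, MXD3, MLX and MAX the value within groups was between 0.546 and 0.915.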

How the data were processed

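RNA of 18 NCI-H295R cultures was sequenced from stranded total RNA libraries, per the labels' protocols. The deposited values are expected counts, summed per gene in 1 table without normalization. Among the tools in the submitters' processing notes are STAR 2.7.0f and RSEM 1.3.1, with bcl2fastq 2.20, cutadapt 1.18 and the build hg38. No source used here gives the annotation release or the counting strand. Positions, exon lengths and gene types came from GENCODE 29, in which 99.54% of the gene IDs are found when versions are ignored.

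Rounding to whole numbers moved no library total by over 0.000381%. The filter was filterByExpr (minimum count 10, minimum total 15), libraries were scaled by TMM, and all 18 entered 1 edgeR 4.0.16 model (R 4.3.3) with a mean for each of the 6 groups, no covariate and the quasi-likelihood F-test over 13 comparisons. The biological coefficient of variation was 10.58%. Each SE was taken from the log2 fold change and its F statistic (absolute value over root F). Alternatives were RLE scaling, no filter and a stricter filter, DESeq2 1.42.0, a block for the replicate number, a fit of only the groups compared, removal of the 50 genes with most counts, and removal of each library in turn. The scripts were tested on simulated data.

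The members and the gene lists were chosen with earlier results of these data known. All members were named, and of each other list up to 4 called genes with the smallest adjusted p in a comparison with untreated cells, TXNIP and ARRDC4 always, and the 3 protein-coding genes closest to each member by Pearson's r of log2 CPM (prior count 2). Promoter windows came from RefSeq, GRCh38.p14, from 250 bases before to 50 after a start, and motifs were searched on both strands. Same-numbered replicates did not deviate together, so no pairing was used. No 2 libraries of a group agreed within sampling noise. Results of the corepressor list in STA9090 cells are not reported here.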

Additional observations from a re-analysis of the deposited data

Results flagged for a closer look

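The effect of STA9090 on MYC differed with PIK75 present and absent. The log2 fold change of MYC on adding STA9090 was -0.61 on PIK75 and -0.08 in cells with no other agent, and the test of that difference, the interaction in edgeR's model, gave -0.53 (adjusted p = 0.0166). All 3 libraries with STA9090+PIK75 were below all 3 with PIK75, while the libraries with STA9090 alone overlapped the untreated ones. STA9090 replicate 1, the library apart from its group, held the lowest MYC level of that group at 64.8 CPM. Leaving it out made the interaction larger in size, at -0.62 (adjusted p = 0.00387, edgeR). PIK75 replicate 3, which also stood apart, held the highest MYC level of its group at 121 CPM. Leaving that library out made the interaction smaller in size, at -0.44 (adjusted p = 0.0424, edgeR). With only the 4 groups concerned in the fit the interaction was -0.52 and no longer passed (adjusted p = 0.0521, edgeR).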

How the results depend on the processing

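For the 104 log2 fold changes of members, 1445 alternative values were computed: 1392 kept their side of the threshold, 45 lost the call and 8 gained it. Of those 1392, 64 were called in neither fit and changed sign, and no value called in either fit did so. Leaving out each library in turn, the members called against untreated cells ran from 2 to 4 with BGT226 (5 in the full fit) and from 2 to 4 with STA9090+BGT226 (4 in the full fit). They ran from 2 to 5 for STA9090+PIK75 against STA9090 (4 in the full fit), from 0 to 1 for STA9090+BGT226 against BGT226 (1 in the full fit) and from 1 to 2 for the interaction of STA9090 with PIK75 (1 in the full fit). In fits of only the groups concerned these last 3 counts were 2, 3 and 0, and the cause was not tested. Counts of listed pathway genes against untreated cells moved by over 1.5 times in these cases among those reported, beside those of left-out libraries. In STA9090 cells no filter gave 1 growth, 1 metabolic and 1 cell cycle target (0 in the full fit), the groups alone gave 0 turnover genes (2 in the full fit), the replicate block gave 1 turnover gene, and DESeq2 gave 1 cofactor and 3, 2 and 1 targets (0 in the full fit). In PIK75 cells the groups alone gave 1 cofactor, 1 growth target, 4 metabolic targets and 0 MondoA targets (4, 3, 7 and 1 in the full fit), RLE scaling and the 50 most counted genes left out gave 2 turnover genes each and the stricter filter 3 (1 in the full fit), and DESeq2 gave 1 further network protein (0 in the full fit). In STA9090+PIK75 cells DESeq2 gave 1 MondoA target (2 in the full fit). In STA9090+BGT226 cells RLE scaling and the 50 most counted genes left out gave 2 further network proteins each (1 in the full fit). The background moved too: against untreated cells STA9090 gave 183 genes higher and 265 lower in the full fit, 0 and 4 with those groups alone, 369 and 400 with no filter, and 32 and 84 without STA9090 replicate 1. The replicate block gave 150 and 218 there and DESeq2 229 and 384. PIK75 against untreated cells gave 1340 and 1607 in the full fit, 928 and 1066 with those groups alone, and 1133 and 1383 with DESeq2. RLE scaling gave 1385 and 1570 there, the 50 most counted genes left out 1263 and 1709, and the stricter filter 1368 and 1580. STA9090+PIK75 against untreated cells gave 2886 and 3170 in the full fit and 2492 and 2951 with DESeq2. BGT226 against untreated cells gave 2028 and 2485 in the full fit and 1414 and 1850 without BGT226 replicate 3. STA9090+BGT226 against untreated cells gave 3059 and 3228 in the full fit and 2399 and 2983 without STA9090+BGT226 replicate 3. RLE scaling gave 2879 and 3396 there, and the 50 most counted genes left out gave 2919 and 3382. STA9090+PIK75 against STA9090 gave 2787 and 3127 in the full fit and 2312 and 2618 with those groups alone. That comparison gave 2299 and 2661 without STA9090+PIK75 replicate 1 and 2501 and 2692 without STA9090+PIK75 replicate 3. STA9090+BGT226 against BGT226 gave 156 and 268 in the full fit, 526 and 808 with those groups alone, 348 and 479 with no filter, and 35 and 99 without BGT226 replicate 2. The interaction of STA9090 with PIK75 gave 559 and 904 in the full fit, 294 and 515 with the groups concerned alone, and 571 and 854 without STA9090 replicate 1. That with BGT226 gave 1 and 0 in the full fit, 13 and 14 with DESeq2 and 82 and 187 with no filter. Same-numbered replicates had a mean correlation of -0.019, other numbers 0.01, and 3 of 18 libraries correlated best with their own number. With the replicate block the MYC interaction was -0.53 (adjusted p = 0.0251) and no count of members called changed. Depth limited MYCN and MYCL, which were not tested.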

Other observations

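PVT1, a non-coding gene beside MYC that is often amplified with it, was measured with 46 to 146 counts a library. Its edgeR log2 fold change against untreated cells was -0.32 in STA9090+PIK75 cells (adjusted p = 0.113), -0.07 in STA9090+BGT226 cells (adjusted p = 0.722), -0.31 in PIK75 cells (adjusted p = 0.176), 0.05 in BGT226 cells (adjusted p = 0.851) and -0.56 in STA9090 cells (adjusted p = 0.0582), and none of these passed. It was higher in STA9090+BGT226 cells than in STA9090 cells, by 0.48 (adjusted p = 0.0183, edgeR).

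Listed MYC targets were also read on adding STA9090. In STA9090+PIK75 against PIK75 cells 0 of 28 metabolic targets rose and 9 fell, 8 of 40 growth targets rose and 5 fell, and 3 of 15 cell cycle targets rose and 3 fell, beside 11.3% of all tested genes higher and 14% lower. In STA9090+BGT226 against BGT226 cells 0 of 28 metabolic targets rose and 2 fell, 0 of 40 growth targets moved, and 0 of 15 cell cycle targets rose and 5 fell, beside 0.988% of all tested genes higher and 1.7% lower.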
